A study of Drosophila melanogaster with 12 samples.

Results

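Tubulins, fly *tau*, *futsch* and their close partners are the proteins of which neuronal microtubules are made and by which they are bound. The 10 genes described here are the alpha-tubulins *alphaTub84B*, *alphaTub84D* and *alphaTub85E*, the beta-tubulins *betaTub56D*, *betaTub97EF* and *betaTub60D*, the microtubule-associated protein genes *tau*, *futsch* and *Map205*, and *stai*, the fly stathmin. They were chosen by gene name, with every annotated isoform that carries the name, and account for 34 of 30738 isoforms and 10 of 13962 genes in the quantified transcriptome. The question is whether the native RNA of these genes, in amount or in isoform makeup, differs between heads of flies that express human mutant tau and heads of control flies.

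Tau transgenic *Drosophila* (genotype elav-Gal4/+;UAS-tauR406W/+) expressed a human tau transgene with the R406W substitution, which is known from frontotemporal dementia. Controls (genotype elav-Gal4/+) carried the same pan-neuronal driver and no tau transgene. Heads were collected at day 10 of adulthood from an equal number of males and females, and each of the 3 tau transgenic and 3 control libraries was made from a pool of 500 heads. Polyadenylated RNA was sequenced directly, as RNA strands, on Nanopore flow cells. The same study holds 6 short-read libraries of control heads only, which enter no comparison between genotypes and are not used here. The elav driver acts in neurons, while a head also holds glia, fat body, muscle and cuticle, so that fewer cells of a type and less RNA per cell cannot be told apart in any value below. Human tau is not a fly transcript and was not analysed here, and all values given for *tau* are those of the endogenous fly gene.

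Microtubules are hollow polymers of alpha- and beta-tubulin dimers and serve as tracks for transport along axons. Tau family proteins bind along the polymer through repeats, Futsch is the fly relative of mammalian MAP1B and is known for its role at the neuromuscular synapse, and stathmins bind free tubulin dimers and favour disassembly. In tauopathy, tau that no longer binds microtubules accumulates in the neuron.

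Abundance is given in TPM as estimated by NanoCount, that is, the number of reads assigned to an isoform per 1000000 assigned reads of the library. A direct RNA read stands for a single RNA molecule, and these TPM are not divided by transcript length. Tau transgenic libraries held 684408, 1329914 and 1024721 assigned reads, against 910700, 759740 and 573001 in controls. These were recovered from the most frequent low TPM value of each library, taken as that of a single read. A count of 3 reads, taken as the floor below which no difference can be read, equals 4.38, 2.26 and 2.93 TPM in the tau transgenic libraries and 3.29, 3.95 and 5.24 TPM in the control libraries. Replicate 1 of the tau transgenic libraries stood apart, with a TPM-weighted mean transcript length of 1325 nt, against 1422 to 1497 nt in the other 5 libraries. The eye pigment gene *w*, which marks most fly transgenes, was at 21.9, 25.6 and 51.7 TPM in tau transgenic heads and 17.6, 17.1 and 10.5 TPM in controls. *elav*, the neuronal gene whose promoter names the driver, was at or under the floor in all 6 libraries. The other 5 neuronal markers examined (*nSyb*, *Syt1*, *brp*, *Syx1A* and *Appl*) were all detected, and the 6 neuronal markers summed to 381 to 655 TPM in tau transgenic heads and 490 to 648 TPM in controls.

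None of the members met the threshold for a change. Of the 10 genes, 8 reached a mean of 5 TPM and were tested, with limma on log2(TPM + 1) and Benjamini-Hochberg adjustment over all 8960 genes, and 0 were called at an adjusted p of 0.05. Over all genes tested 1.08% were called (97 genes, of which 57 were higher and 40 lower in tau transgenic heads), a background against which 0 of 8 sets the members apart in neither direction. At an unadjusted p under 0.05 there were 2 member genes, *betaTub60D* and *betaTub97EF*, against 8.15% of all genes. The same 2 genes were the only members for which the tau transgenic and control libraries did not overlap, against 13.0% of all genes. The median log2 fold change of the 8 genes was -0.02, and that of all genes tested was -0.04. Among isoforms, 14 of 34 were tested and 0 of 14 were called, against 0.758% of the 12800 isoforms tested. Of the 14, 1 had an unadjusted p under 0.05 (8.21% of all) and 3 had groups that did not overlap (13.4% of all). These 3 were *betaTub97EF*-RB and the 2 isoforms of *betaTub60D*, which had equal TPM in all 6 libraries and so are a single measurement. The same holds for *tau*-RA and *tau*-RM, both among the 14.

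**Figure D1:**
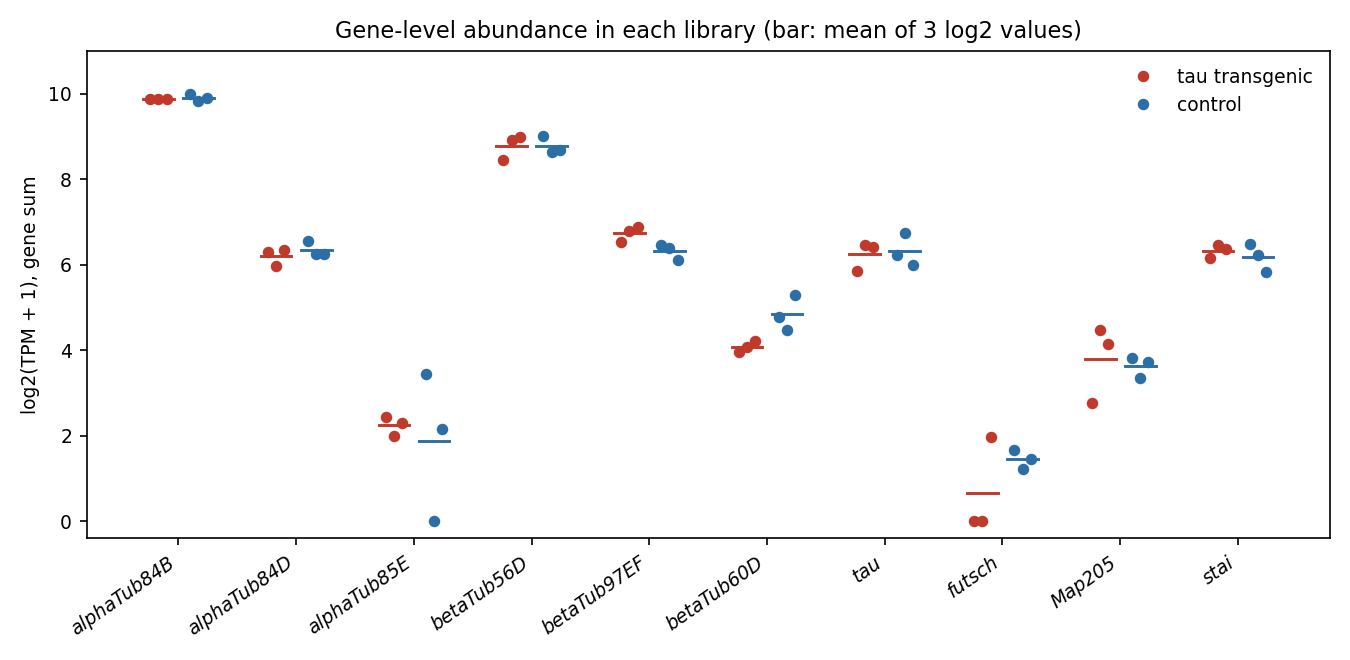
Gene-level abundance of the 10 members as log2(TPM + 1), with a point for each of the 3 tau transgenic and 3 control libraries and a bar at the mean of the log2 values of each genotype. The groups separate only for *betaTub97EF* and *betaTub60D*, and *futsch* lies at the bottom of the scale in both genotypes.

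**Figure D2:**
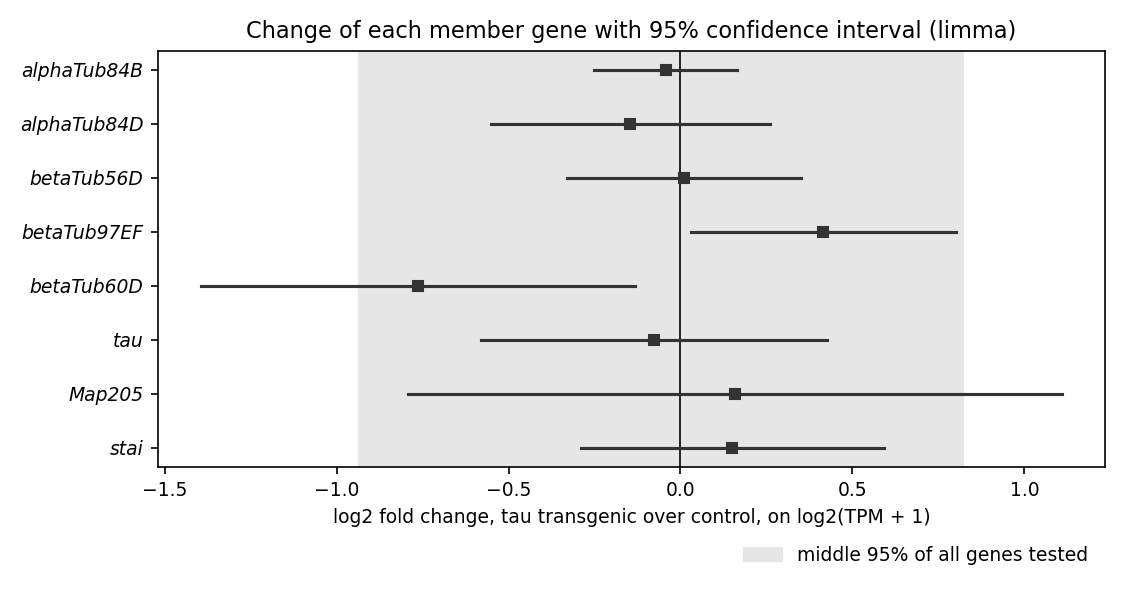
Log2 fold change (tau transgenic over control, on the log2(TPM + 1) scale) of the 8 genes tested, with 95% confidence intervals from limma, over a grey band that holds the middle 95% of the 8960 genes tested (-0.94 to 0.82). All 8 estimates lie within the band, and 6 of the intervals span 0.

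The members covered a wide range of abundance. Averaged over the 6 libraries, *alphaTub84B* stood at 945 TPM and ranked 168 among all genes, and *betaTub56D* stood at 443 TPM. *betaTub97EF* followed at 92.6 TPM, then fly *tau* at 78.2, *alphaTub84D* at 76.9 and *stai* at 76.0 TPM, which overlapped one another across libraries. *betaTub60D* (22.3 TPM), *Map205* (13.0 TPM), *alphaTub85E* (4.11 TPM) and *futsch* (1.36 TPM) came last. Since a TPM here is a share of molecules, a head held about as many polyadenylated fly *tau* molecules as *stai* or *alphaTub84D* molecules in these libraries, as far as transcripts of different length are captured alike.

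*alphaTub84B*, the main alpha-tubulin of most fly cells (FBgn0003884, chromosome 3R, 7086599 to 7088839, plus strand), has a single annotated isoform of 1752 nt in 2 exons. It had 934, 929 and 929 TPM in tau transgenic heads, against 1016, 911 and 953 TPM in controls. The tau transgenic values lay inside the range of the controls, and control replicate 1 was the highest. The log2 fold change was -0.04 (95% confidence interval -0.25 to 0.16, limma adjusted p = 0.966), an interval of -15.97% to 12.1%. Its coefficient of variation over the 6 libraries was 3.92%, where the number of reads alone (546 to 1235 a library) would give 3.60%. Of 215 genes with a mean within 2-fold of its own, 5 had a smaller SD over the 6 libraries on the log2 scale, and its SD was 0.055 where the median of those genes was 0.176.

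*alphaTub84D* (FBgn0003885, 3R, 7530753 to 7532732, plus strand) encodes an alpha-tubulin of the same length, 450 codons, from an intronless gene. It had 77.4, 61.7 and 80.0 TPM in tau transgenic heads and 92.2, 75.0 and 75.0 TPM in controls, so the groups overlapped. This gave a log2 fold change of -0.15 (95% confidence interval -0.55 to 0.26, limma adjusted p = 0.942). *alphaTub84B* exceeded it by 11.6 to 15.1 times in tau transgenic libraries and 11.01 to 12.7 times in control libraries.

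*alphaTub85E* (FBgn0003886, 3R, 9731221 to 9733250, minus strand) encodes an alpha-tubulin known from a few cell types, among them support cells of sense organs. It had 3, 4 and 4 reads in tau transgenic libraries, against 9, 0 and 2 reads in control libraries. In 3 of the 6 libraries it was at or under the floor, and its mean of 4.11 TPM kept it out of the test. In sum there were 11 reads among 3039043 in tau transgenic libraries and 11 among 2243441 in control libraries, too few for a difference to be detectable at this depth.

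*betaTub56D*, the general beta-tubulin (FBgn0284243, 2R, 19447319 to 19451600, minus strand), had 349, 480 and 508 TPM in tau transgenic heads, against 514, 398 and 408 TPM in controls. Replicate 1 was the lowest library of the tau transgenic group and the highest of the control group, and the ranges overlapped. Between genotypes the log2 fold change was 0.01 (95% confidence interval -0.33 to 0.35, limma adjusted p = 0.999). In contrast to *alphaTub84B*, its coefficient of variation over the 6 libraries, 15.2%, was well above the 5.19% that counting would give. Its spread was not unusual for its abundance: 255 of 431 genes with a mean within 2-fold of its own had a smaller SD on the log2 scale. The SD was 0.225 where the median of those genes was 0.191. Of its 2 annotated isoforms, which differ in their first exon, *betaTub56D*-RB carried at least 99.46% of the gene's TPM in every library.

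*betaTub97EF* (FBgn0003890, 3R, 27967008 to 27988384, minus strand) encodes a beta-tubulin known from the fly gut and from flies raised in the cold. It had 92.1, 110 and 116 TPM in tau transgenic heads, against 86.7, 82.9 and 68.1 TPM in controls. Every tau transgenic library was above every control library, and the closest pair was tau transgenic replicate 1 and control replicate 1. The means were 106 ± 12.5 TPM in tau transgenic heads and 79.2 ± 9.87 TPM in controls (SD, n = 3 each). The log2 fold change was 0.42 (95% confidence interval 0.03 to 0.80, limma unadjusted p = 0.0366, adjusted p = 0.544), and the adjusted p ranged between 0.285 and 0.922 over 15 alternative settings, so the difference did not pass the test. It rested on 63, 146 and 119 reads in tau transgenic libraries and 79, 63 and 39 reads in control libraries.

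The 2 annotated isoforms of *betaTub97EF* have the same length, 1701 nt in 7 exons, and differ only in which of 2 exons of 168 nt, starting at 27969660 or at 27969383, is used as exon 4. The first of these, in *betaTub97EF*-RB, made up 98.4% to 100% of the gene's TPM in all 6 libraries. The alternative exon was supported by about 1 read in tau transgenic replicate 3 and about 1 read in control replicate 1, and by none elsewhere. At the isoform level *betaTub97EF*-RB gave the same picture as the gene, with a log2 fold change of 0.42 (limma adjusted p = 0.506).

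*betaTub60D* (FBgn0003888, 2R, 24305881 to 24313099, plus strand) encodes the beta-tubulin known from developing muscle. It had 14.6, 15.8 and 17.6 TPM in tau transgenic heads, against 26.4, 21.1 and 38.4 TPM in controls, and every tau transgenic library was below every control library. The tau transgenic libraries lay close together (15.99 ± 1.49 TPM, SD, n = 3), whereas the controls were spread (28.6 ± 8.88 TPM, SD, n = 3). The log2 fold change was -0.76 (95% confidence interval -1.39 to -0.13, limma unadjusted p = 0.0216, adjusted p = 0.440). With 10, 21 and 18 reads in tau transgenic libraries and 24, 16 and 22 reads in control libraries, the value depended on few molecules, and the adjusted p stayed between 0.299 and 0.880 over 15 alternatives. Its 2 isoforms, which differ by 3 nt, were given the same TPM in all 6 libraries, so that reads were divided equally between them and only their sum is a measurement. Muscle markers (*Mhc*, *Act88F*, *up* and *Mlc2*, all 4 detected) summed to 327 to 515 TPM in tau transgenic heads and 298 to 445 TPM in controls. All 4 had positive log2 fold changes (median 0.40), 0 were called, and only for *up* did the groups not overlap. The part of muscle in the values of *betaTub60D* was not tested.

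Taken as families, the 3 alpha-tubulins summed to 1015, 993 and 1013 TPM in tau transgenic heads and 1118, 986 and 1031 TPM in controls. The 3 beta-tubulins summed to 456, 605 and 642 TPM in tau transgenic heads and 627, 501 and 515 TPM in controls. The ratio of alpha to beta was 2.23, 1.64 and 1.58 in tau transgenic libraries, against 1.78, 1.97 and 2.003 in control libraries, so alpha-tubulin RNA exceeded beta-tubulin RNA in each library and the ratio overlapped between genotypes. *alphaTub84B* supplied 91.7% to 93.5% of the alpha-tubulin TPM in tau transgenic heads and 90.9% to 92.4% in controls. Within these 3 beta-tubulins, *betaTub97EF* took 18.8% ± 1.20 of the TPM in tau transgenic heads and 14.5% ± 1.76 in controls (SD, n = 3 each). This share was not tested apart from the gene-level difference, and it also depends on the other beta-tubulins in the sum. Tubulins outside the members, such as *betaTub85D*, are in none of these sums.

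Fly *tau* (FBgn0266579, 3R, 27639886 to 27656996, minus strand) encodes the single fly homolog of human tau. It had 57.0, 86.5 and 83.9 TPM in tau transgenic heads, against 73.6, 105 and 62.8 TPM in controls. The lowest value of all was in tau transgenic replicate 1 and the highest in control replicate 2, and the groups overlapped. The log2 fold change was -0.08 (95% confidence interval -0.58 to 0.43, limma adjusted p = 0.975), an interval of -33.1% to 34.3%. The sum of the 6 neuronal markers was likewise lowest in tau transgenic replicate 1, at 381 TPM, where the lowest control library had 490 TPM. The sum of the 6 glial markers was lowest in the same library, at 1048 TPM, where the lowest control library had 1087 TPM. Of the glial markers, *repo* and *alrm* were lowest in control replicate 3. The part of either sum in the values of fly *tau* was not tested. The direction turned with the setting: without tau transgenic replicate 1 the log2 fold change was 0.11, and without control replicate 2 it was 0.13. The gene sums rested on 39, 115 and 86 reads in tau transgenic libraries and 67, 80 and 36 reads in control libraries.

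Of the 14 annotated isoforms of fly *tau*, 4 reached a mean of 5 TPM. *tau*-RA, *tau*-RB and *tau*-RM share the same coding plan from an upstream start to the terminal exon at 27640643 to 27641494. *tau*-RB begins at 27656996, upstream of the start of the others at 27656814, and *tau*-RM holds an extra exon of 18 nt (27644405 to 27644422), so that the predicted proteins have 361 codons in *tau*-RA and *tau*-RB and 367 in *tau*-RM. These small differences were hardly resolved: the 3 isoforms were given equal TPM in 5 of the 6 libraries, and only in control replicate 3 was *tau*-RB separate, at 26.3 TPM where *tau*-RA and *tau*-RM were at 13.0 TPM each. Their sum is therefore the better measurement, and it stood at 44.3, 62.4 and 62.7 TPM in tau transgenic heads, against 51.6, 84.0 and 52.3 TPM in controls. The 3 isoforms together made up 74.9% ± 2.77 of fly *tau* TPM in tau transgenic heads and 77.7% ± 6.78 in controls (SD, n = 3 each).

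*tau*-RN, which keeps an additional exon of 1097 nt (27641842 to 27642938) that holds its stop codon, had 4.90, 8.52 and 6.66 TPM in tau transgenic heads, against 8.40, 1.45 and 1.85 TPM in controls. Control replicates 2 and 3 were under the floor and control replicate 1 had the second highest value, so the groups overlapped. Its mean of 5.30 TPM was just above the minimum for the test, while the control mean of 3.90 TPM was under it. The isoform had a log2 fold change of 0.90 (95% confidence interval -0.47 to 2.28, limma adjusted p = 0.803). Without tau transgenic replicate 2 or without control replicate 1 its mean was under the minimum and it was not tested. Its share of the gene was 8.79% ± 0.973 in tau transgenic heads and 5.25% ± 5.40 in controls (SD, n = 3 each; exact permutation p = 0.4, adjusted p = 0.98). *tau*-RJ, which skips the exon of 159 nt at 27643815, averaged 4.31 TPM and stayed just below the test, and *tau*-RO and *tau*-RC averaged 2.87 and 2.76 TPM. The 7 isoforms from *tau*-RE, *tau*-RF and *tau*-RG to *tau*-RL, other than *tau*-RJ, averaged at most 1.43 TPM each, and those that end at 27639886 had no more than 3.49% of the gene's TPM in any library.

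**Figure D3:**
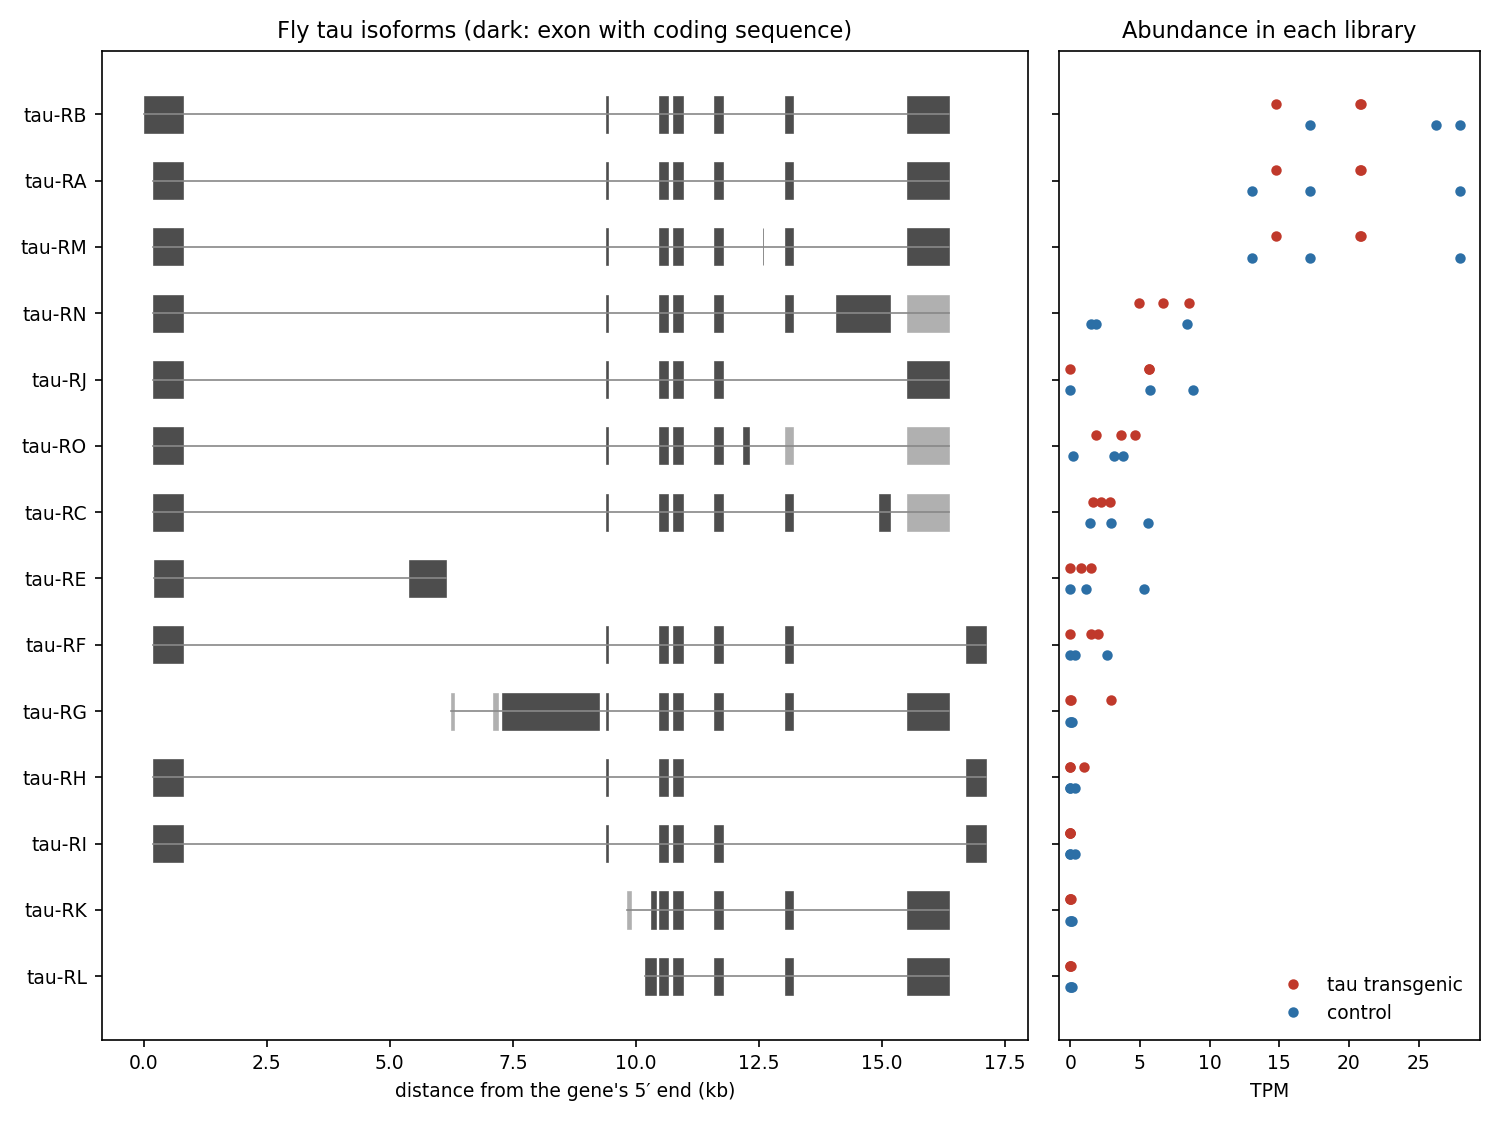
Exon structure of the annotated isoforms of fly *tau*, drawn to scale as distance in kb from the gene's 5′ end, beside the TPM of each isoform with a point for each tau transgenic and control library. *tau*-RA, *tau*-RB and *tau*-RM hold most of the TPM and have the same values in all libraries but control replicate 3.

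Across the 6 libraries, the genes whose log2(TPM + 1) most resembled that of fly *tau*, among 4937 genes with a mean of at least 20 TPM, were *WASp* (Pearson r = 0.986), *Syt1* (r = 0.984) and *Adi1* (r = 0.979). *WASp* encodes an activator of actin branching, *Syt1* the calcium sensor of synaptic vesicle release and *Adi1* an enzyme of the methionine salvage pathway. *Syt1* had 102, 162 and 144 TPM in tau transgenic heads and 142, 187 and 113 TPM in controls, with its lowest and highest libraries the same as those of fly *tau*. These are descriptions over 6 points that share library, depth and RNA quality, picked as the closest of many genes.

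*futsch* (FBgn0259108, X, 1409069 to 1453686, plus strand) has 3 annotated isoforms of 19300, 20736 and 22255 nt that share a coding sequence of 5495 codons. It had 0, 0 and 3 reads in tau transgenic libraries and 2, 1 and 1 reads in control libraries, at or under the floor in all 6, and no fold is given. *futsch*-RC and *futsch*-RF were given the same value in every library, and *futsch*-RE was listed at 0 in all 6. Of 171 isoforms above 15000 nt, 40 (23.4%) reached a mean of 5 TPM, against 24.6% of those from 10000 to 15000 nt. Among the 14143 isoforms up to 2000 nt, 47.3% did. Median TPM did not fall with length above 5000 nt: it was 2.14 up to 10000 nt, 2.26 up to 15000 nt and 2.42 beyond. The highest mean of any isoform above 15000 nt was 49.2 TPM, and each *futsch* isoform was below the median of that length class. Whether the RNA was scarce or too long to be counted was not tested, and a change of *futsch* between genotypes was not detectable at this depth.

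**Figure D4:**
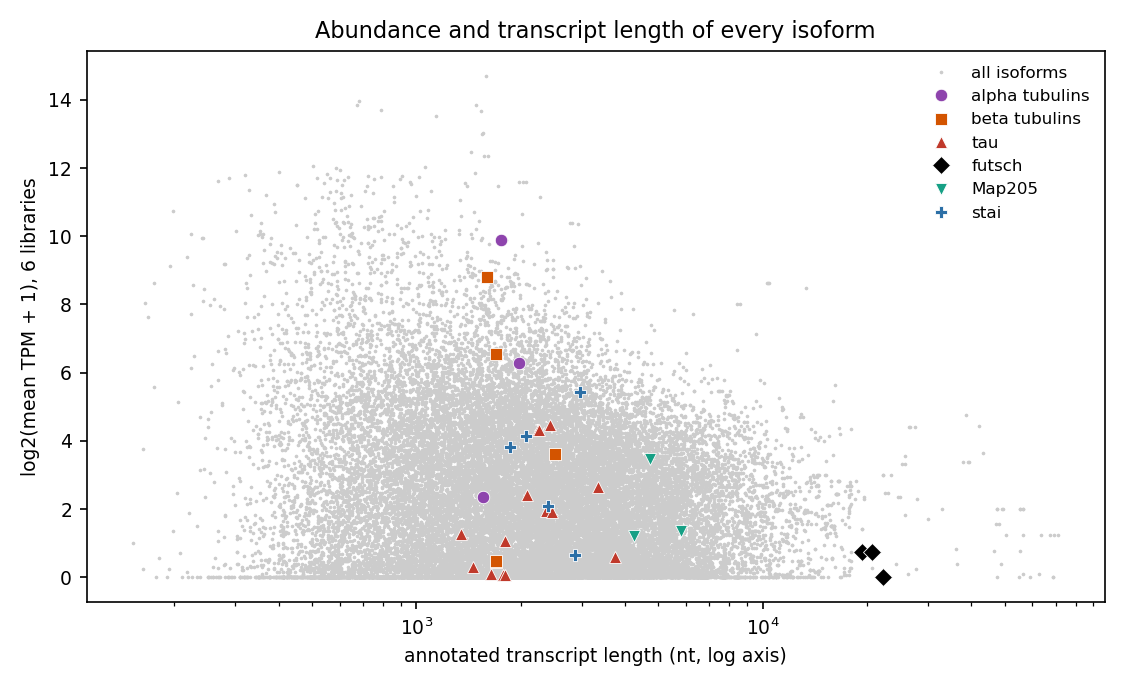
Mean abundance over the 6 libraries, as log2(TPM + 1), against annotated transcript length on a log axis, with a grey point for each of the isoforms quantified and coloured points for the members by family. The *futsch* isoforms lie at the far right and near 0, and the major tubulin isoforms lie between 1596 and 1980 nt near the top.

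*Map205* (FBgn0002645, 3R, 32055279 to 32068441, minus strand) encodes a microtubule-associated protein that also binds the mitotic kinase Polo. It had 5.84, 21.1 and 16.6 TPM in tau transgenic heads, against 13.2, 9.21 and 12.2 TPM in controls. Tau transgenic replicate 1, with 4 reads, was the lowest library and tau transgenic replicate 2, with 28 reads, the highest, so that the controls lay within the tau transgenic range. With limma, the log2 fold change was 0.16 (95% confidence interval -0.79 to 1.11, limma adjusted p = 0.973), and it was -0.18 without tau transgenic replicate 2. *Map205*-RB, of 4733 nt, was the isoform tested and held 85.4% ± 16.3 of the gene's TPM in tau transgenic heads and 74.6% ± 9.91 in controls (SD, n = 3 each; exact permutation p = 0.4, adjusted p = 0.98).

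*stai* (FBgn0266521, 2L, 6100377 to 6124653, plus strand) encodes the fly stathmin, known for the upkeep of motor axon terminals. It had 70.1, 86.5 and 82.0 TPM in tau transgenic heads, against 87.8, 73.7 and 55.8 TPM in controls. The highest and the lowest values were both in controls, and the tau transgenic libraries lay between them. Its log2 fold change was 0.15 (95% confidence interval -0.29 to 0.59, limma adjusted p = 0.954). Without control replicate 3, the lowest library, it was -0.02.

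The 5 isoforms of *stai* combine 3 first exons with 2 annotated 3′ ends, at 6123899 and 6124653. *stai*-RB, which starts at 6109667 and ends at the distal site, was the most abundant, with 32.4, 53.3 and 45.8 TPM in tau transgenic heads and 44.8, 39.5 and 39.7 TPM in controls. It held 54.6% ± 7.85 of the gene's TPM in tau transgenic heads and 58.6% ± 11.02 in controls (SD, n = 3 each; exact permutation p = 0.7, adjusted p = 0.98). *stai*-RA, from the same first exon but ending at the proximal site and without the exon of 156 nt at 6122698, averaged 17.1 ± 4.28 TPM in tau transgenic heads and 16.03 ± 6.52 TPM in controls. *stai*-RC, which starts at 6100377, had 13.4, 19.0 and 13.2 TPM in tau transgenic heads, against 17.2, 11.4 and 3.93 TPM in controls. Its log2 fold change of 0.62 (95% confidence interval -0.38 to 1.62, limma adjusted p = 0.826) depended on control replicate 3, where it was under the floor, and was 0.086 without that library. Isoforms that end at the distal site made up 50.0%, 61.7% and 56.0% of *stai* TPM in tau transgenic heads and 51.3%, 53.6% and 71.9% in controls, with the highest share again in control replicate 3.

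**Figure D5:**
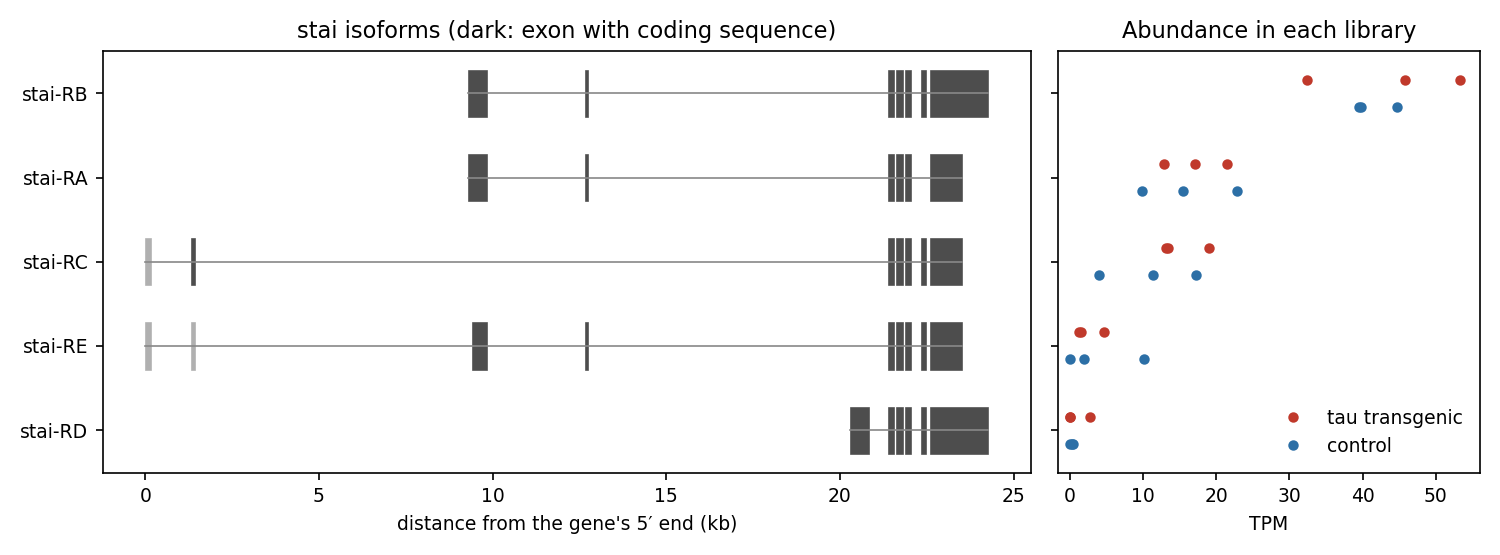
Exon structure of the 5 annotated isoforms of *stai*, drawn to scale as distance in kb from the gene's 5′ end, beside the TPM of each isoform with a point for each tau transgenic and control library. *stai*-RB is the most abundant in each library, and the genotypes overlap in all 5 isoforms.

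Shares were compared for the 14 isoforms that held a mean of 5% or more of their gene, in genes with at least 2 isoforms and with reads in all 6 libraries, which leaves out *futsch*. The smallest p that 3 against 3 libraries allow in the exact permutation test is 0.1, so this comparison could not reach 0.05, and no adjusted p was below 0.98. *betaTub56D*-RB alone reached 0.1, with a difference of 0.184 percentage points between shares that were all above 99%. Among the 14, the 2 *betaTub60D* isoforms held 50% each in every library, as reads were divided equally, so their shares could show no difference. *tau*-RA and *tau*-RM had the same shares in every library and are not separate comparisons.

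Further genes of the microtubule network were examined beside the members. Of 72 further gene symbols for motors, polymer dynamics and severing, tubulin folding and modification and other tubulins, 70 were listed and 60 tested, and with limma 0 were called in either direction (1.08% of all genes) and 1 had an unadjusted p under 0.05 (8.15% of all genes). That gene was *CCT2*, a subunit of the chaperonin that folds tubulin and actin, with 120, 111 and 104.4 TPM in tau transgenic heads and 105, 82.9 and 61.1 TPM in controls (log2 fold change 0.45, limma adjusted p = 0.599). The median log2 fold change of the 60 genes was -0.03, beside -0.04 for all genes tested. All 20 motor and motor adaptor genes were tested, with a median log2 fold change of -0.04. The groups did not overlap for 2 of the 60 genes, against 13.0% of all genes, and both were lower in tau transgenic heads (6.93% of all genes did not overlap in that direction): *Klp10A*, a kinesin that shortens microtubule ends, at 24.8, 24.1 and 27.3 TPM in tau transgenic heads and 38.4, 27.6 and 33.2 TPM in controls, and *gammaTub23C*, the gamma-tubulin that nucleates microtubules, at 14.6, 16.5 and 18.5 TPM in tau transgenic heads and 19.8, 19.7 and 29.7 TPM in controls.

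Among the network genes tested, the 2 lowest log2 fold changes were -1.15 for *TTLL6B*, of the family that adds glutamates to tubulin tails, and -0.73 for the maternal alpha-tubulin *alphaTub67C*. Both genes were at or under the floor of 3 reads in 3 of the 6 libraries, so these values rest on very few reads. The 2 highest were 0.64 for the kinesin *Klp68D* and 0.49 for *Tat*, the alpha-tubulin acetyltransferase. All 4 had groups that overlapped and limma adjusted p values from 0.684 to 0.846. A further beta-tubulin, the testis form *betaTub85D*, was more abundant than *betaTub60D* in each of the 6 libraries, with 73.1, 46.6 and 39.0 TPM in tau transgenic heads and 86.7, 31.6 and 48.9 TPM in controls (log2 fold change -0.0048, limma adjusted p = 0.999). Of the other testis markers, *Mst84Da* was present at 34.2 to 48.2 TPM in tau transgenic heads and 38.2 to 71.6 TPM in controls, while *dj* was listed at 0 in all 6 libraries.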

How the data were processed

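Native polyadenylated RNA from 6 pools of fly heads was sequenced by Nanopore direct RNA sequencing. Base calling by the authors used Guppy v5.1.12, with a minimum read quality of 9. Reads were mapped with minimap2 against FlyBase 6.43 transcripts, with up to 10 secondary alignments kept, and the authors deposited NanoCount v1.0.0 TPM for each isoform and library. The deposited table also holds the authors' own comparison (mean normalized signal, log2 fold change with its error, test score, p-value), which was not used. Alignments were not analysed here, and reads that fit several isoforms were divided by the authors' estimation, so isoform values are less certain than gene sums.

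Isoform TPM were summed by gene, leaving out 37 rows without a gene (at most 0.0646% of TPM). Features that averaged 5 TPM or more were tested with limma 3.58.1 (R 4.3.3) on log2(TPM + 1), with a trend, two-sided, with Benjamini-Hochberg adjustment over all features tested. A fold change on this scale understates the change of low genes. Isoform shares were compared by a two-sided exact permutation test. The code was tested on simulated data. Assigned reads per library were recovered from the most frequent low TPM value, taken as that of a single read. Gene sums of the members then came out as whole reads (within 0.01) in 56 of 57 values above 0. Only 41.7% to 44.4% of isoform values were whole, so no count test was run. Coordinates are those of Ensembl release 115 for the release 6 fly genome, matched by transcript identifier and gene name (*betaTub60D* has another gene identifier there). The replicates are labelled as separate biological replicates.

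Members, gene lists and the naming rule were chosen with earlier results of these data known. Named were all members, the 3 genes most like fly *tau*, label checks, and network genes past the threshold or, failing that, the pair with the largest change in each direction; *CCT2*, *Klp10A* and *gammaTub23C* were added after their values were seen, as were *betaTub85D* and the marker genes beside it. Of the marker lists, 29 of 32 genes were tested and 0 were called with limma (1.08% of all genes), 4 had an unadjusted p under 0.05 (8.15% of all genes), and 2, *ninaE* and *up*, both higher in tau transgenic heads, had groups that did not overlap (13.0% of all genes). In tau transgenic heads, photoreceptor markers summed to 36083 to 43050 TPM, against 31528 to 35099 TPM in controls, a separation carried by *ninaE* (29759 TPM against 23587 TPM, limma adjusted p = 0.071; the median log2 fold change of the 6 markers was -0.0089), and glial markers to 1048 to 1469 TPM, against 1087 to 1360 TPM in controls. Fat body markers summed to 1335 to 1720 TPM in tau transgenic heads, against 1567 to 1809 TPM in controls, where *Lsp2* and *Apoltp* went in opposite directions (log2 fold changes 1.72 and -0.40, limma adjusted p = 0.411 and 0.472), haemocyte markers to 118 to 132 TPM, against 95.5 to 174 TPM in controls, and testis markers to 73.2 to 121 TPM, against 69.8 to 148 TPM in controls. Alternatives were other pseudocounts, filters, scalings, library weights, no trend, a replicate block and each library left out.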

Additional observations from a re-analysis of the deposited data

How the results depend on the processing

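None of the 8 genes and 14 isoforms tested was called under any alternative that tested it: the smallest adjusted p (limma) was 0.285 for a gene and 0.3004 for an isoform. Of the 2 genes and 20 isoforms below the minimum, all but *futsch*-RE were tested with no filter, and 0 were called (limma, smallest adjusted p 0.886 for a gene and 0.837 for an isoform). That setting called only 42 of 13015 genes and 0 of 28413 isoforms, so it cannot tell these members from the rest. The number of genes called among all genes, 97, was 42 with no filter on low values and 4 without a trend in the variance, and 29 to 105 when a library was left out, with 29 without control replicate 3 and 50 without tau transgenic replicate 3. The number of isoforms called, also 97, was 0 with no filter (limma, 1744 at an unadjusted p under 0.05), 5 without a trend, and 25 to 100 when a library was left out, with 25 without control replicate 3, 29, 40 and 55 without tau transgenic replicates 3, 1 and 2. With the replicate number as a block, 77 genes and 100 isoforms were called, and no call among the members changed. Same-numbered libraries did not deviate together (correlations of -0.16 to 0.069 over genes). The largest correlation over genes was between tau transgenic replicate 1 and control replicate 3 (0.31). With so few libraries, these values show no pairing by number but cannot exclude it. The cause of the shifts in the number called was not tested.

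Changes of sign among the members were all within error. They were -0.025 for *betaTub56D*-RB under quantile normalization, 0.0069 for *alphaTub84B*-RA under median ratio scaling and 0.045 for the fly *tau* gene under library weights (log2). With a library left out, the log2 fold changes of genes ranged from -0.24 to 0.13 for fly *tau*, -0.094 to 0.18 for *betaTub56D*, -0.18 to 0.67 for *Map205* and -0.022 to 0.30 for *stai*, and those of isoforms from -0.091 to 0.18 for *betaTub56D*-RB, -0.23 to 0.29 for *tau*-RA and *tau*-RM, -0.097 to 0.26 for *stai*-RB and -0.16 to 0.41 for *stai*-RA. Differences of shares ranged, in percentage points, from -3.64 to 7.07 for *Map205*-RC, -0.306 to 0.529 for *betaTub97EF*-RB, -2.49 to 4.20 for *stai*-RA, -7.80 to 2.32 for *stai*-RB and -0.0268 to 2.89 for *tau*-RA and *tau*-RM. *betaTub97EF* (0.31 to 0.51) and *betaTub60D* (-0.95 to -0.54) kept their direction without each library. Genes whose groups do not overlap must do so, and this adds nothing to that separation. *alphaTub84B* (-0.080 to -0.0018) and *alphaTub84D* (-0.22 to -0.030), whose groups overlapped, kept theirs too. Few reads limit any statement on *alphaTub85E*, *futsch* and *Map205*.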
